A study of Homo sapiens with 18 samples.

Results

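A set of 50 genes whose products make ribosomes was followed in human embryonic stem cells with normal or lowered NAT10. They were chosen by symbol from the known protein factors of ribosome biogenesis, all 50 were found by Ensembl identifier among the 61860 genes of the count table, and all 50 passed the filter on low counts that left 16760 genes for testing. The cells were H1, an established human embryonic stem cell line. They carried a lentiviral shRNA against NAT10 (knockdown) or a negative control shRNA (control), the transduced cells having been enriched by their GFP marker and expanded under puromycin. In each genotype polyadenylated RNA was sequenced at 0, 1.5 and 3.5 h of actinomycin D, which blocks transcription, with 3 libraries for each of the 6 combinations and 18 libraries in all. The series title sets the question of how transcript half-lives relate to N4-acetylcytidine, the RNA mark that NAT10 makes. The labels do not say whether 1 or several shRNAs were used, and do not say that the libraries of a group are separate cultures. The p-values therefore cover the spread among these libraries, which may be technical.

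Ribosomes are built in the nucleolus. RNA polymerase I transcribes a long precursor RNA, small nucleolar RNPs guide its chemical modification, and a large particle, the small-subunit processome, folds and cuts the part that becomes the small subunit while other factors assemble the large subunit. NAT10 itself is a nucleolar enzyme that acetylates small-subunit ribosomal RNA, and its yeast counterpart Kre33 is a component of the small-subunit processome. The pathway is highly active in embryonic stem cells, which divide fast.

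The shRNA lowered its target in every knockdown library. NAT10 was at 208, 211 and 210 CPM in control at 0 h and at 20.4, 21.2 and 24.1 CPM in knockdown. CPM is a library's count over its total after TMM scaling, so that levels are read relative to the typical transcript. Libraries held 15037492 to 15519197 counts, of which 0.0857% to 0.544% were ERCC spike-in RNA, added once the RNA had been purified. Sums of marker levels are given in CPM taken without TMM scaling. The TMM factors at 0 h were 1.003 to 1.005 in control and 1.107 to 1.118 in knockdown, so TMM scaling would lower the knockdown sums more. All 10 embryonic stem cell markers were measured, with an unscaled sum of 9680 to 10300 CPM in control and 9580 to 9750 CPM in knockdown at 0 h. With TMM scaling 7 of the 10 were lower in knockdown. The 7 fibroblast markers summed to 581 to 645 CPM in control and 1200 to 1600 CPM in knockdown, with 2 higher and 1 lower of the 4 that passed the filter and none at 0 in all libraries. Neural ectoderm, mesoderm and trophoblast markers were also higher in sum, at no more than 32.9 CPM, and the part of these markers in the results below was not tested. In bulk RNA, fewer cells of a type and less RNA per cell cannot be told apart. Knockdown replicate 1 at 0 h stood apart from the other two, with a chi-square per degree of freedom of 15.2 and 21.7 against them, compared with 2.14 between them. It was the highest of the 3 in 27 of the 50 genes and the lowest in 19.

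Levels per length spanned a wide range. On the scale of the authors' deposited signal, which divides by gene length and scales to the spike-in, NCL (nucleolin, an RNA-binding protein of the nucleolus) was at 867 ± 143 in control at 0 h (SD, n = 3). NPM1 (nucleophosmin, a histone and ribosome chaperone) followed at 684 ± 123, FBL (fibrillarin, the ribose methyltransferase of box C/D snoRNPs) at 514 ± 81.5 and NOLC1 (a chaperone of snoRNPs) at 465 ± 68.3. Neighbours in that order differed by less than the sum of their SDs, whereas the next gene, NOP56, was at 252 ± 30.7. Among the 49 genes listed there the lowest levels were those of NOP2 at 3.85 and RRN3 at 4.14. PWP2 is not listed, and at 2.26 CPM in control at 0 h it had the lowest CPM of the 50. All 3 share sequence with other annotated genes, as described below.

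Before the block, 39 of the 50 genes were lower in knockdown and none was higher (edgeR quasi-likelihood test, adjusted p under 0.05). Of all genes tested, 28.3% were lower and 23.8% higher. None of the 50 was higher at an unadjusted p under 0.05 or with DESeq2 either. The median log2 change of the 50 was -0.29, against -0.04 over all genes. Scaled to the spike-in, all 50 were lower, as were 64.1% of all genes, and the median of all genes moved to -0.71. The libraries of the genotypes did not overlap, knockdown below control, in 32 of the 50, against 27.3% of all genes. The summed level of the 50 was 11811, 11762 and 12333 CPM in control and 10101, 9424 and 9111 CPM in knockdown, and the knockdown libraries lay below every control library. Only 20 were called lower when the fit held the 0 h libraries alone, against 2975 of the 15802 genes tested there. Leaving out knockdown replicate 1 at 0 h left 39, against 5295 of 17067 genes.

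**Figure D1:**
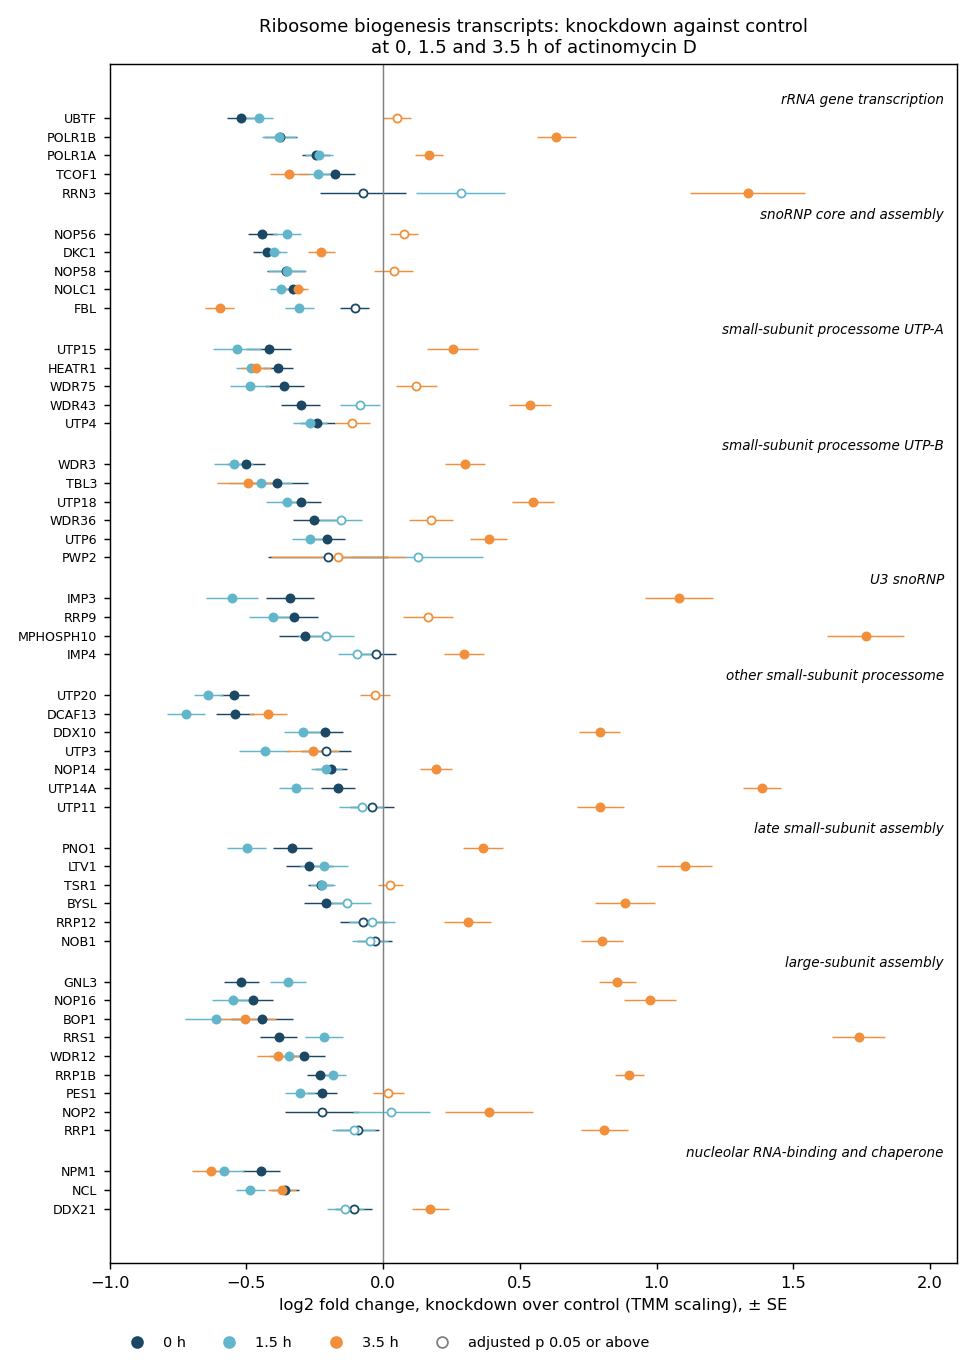
Log2 change between knockdown and control (horizontal axis, TMM scaling, ± SE) for the 50 genes, grouped by role. Each gene has 1 point for each of 0, 1.5 and 3.5 h of actinomycin D. At 0 h all points lie below 0, with a median of -0.29, and at 3.5 h they spread from -0.63 (NPM1) to 1.76 (MPHOSPH10).

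Of the genes of ribosomal RNA transcription, 4 of 5 fell at 0 h. UBTF (ENSG00000108312, chromosome 17, 44205033 to 44221626, GRCh38), which binds the ribosomal DNA and helps to load RNA polymerase I, was at 250, 266 and 257 CPM in control and at 170, 190 and 179 CPM in knockdown. The groups did not overlap, and the change was -0.52 ± 0.0507 (log2 ± SE, adjusted p = 8.86e-09, edgeR). POLR1A and POLR1B, which form the catalytic core of the polymerase, changed by -0.25 and -0.38, and TCOF1 (treacle, a nucleolar cofactor of the polymerase) by -0.18. The fifth gene, RRN3, which links the polymerase to its promoter, was at 6.92, 4.63 and 5.01 CPM in control and 6.56, 5.19 and 3.98 CPM in knockdown, overlapping throughout (adjusted p = 0.72, edgeR).

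Among the snoRNP proteins 4 of 5 fell. DKC1 (ENSG00000130826, chromosome X, 154762742 to 154777689), the pseudouridine synthase of box H/ACA particles, was at 294, 292 and 307 CPM in control and 235, 222 and 207 CPM in knockdown. Every knockdown library was lower, by -0.43 ± 0.0485 (adjusted p = 1.06e-07, edgeR). NOP56 and NOP58, the paired core proteins of box C/D particles, changed by -0.44 and -0.36. FBL, their methyltransferase, did not pass at 0 h: it was at 341, 354 and 379 CPM in control and 324, 347 and 328 CPM in knockdown, with overlap (-0.10 ± 0.0537, adjusted p = 0.108, edgeR).

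The small-subunit processome was lower in most of its parts. All 5 genes of the set that were assigned to the UTP-A complex fell, from -0.42 for UTP15 to -0.24 for UTP4. That complex binds the precursor RNA first. HEATR1 (ENSG00000119285, chromosome 1, 236549005 to 236604504), the largest protein of that complex, was at 288, 308 and 317 CPM in control and 248, 227 and 224 CPM in knockdown. That gap exceeded the spread of either group (-0.39 ± 0.0551, adjusted p = 3.14e-06, edgeR). Of the UTP-B complex, a scaffold of WD40 proteins, 5 of 6 fell, and PWP2 did not pass. TBL3, at -0.39, lost its call when the fit held the 0 h libraries alone (adjusted p = 0.13, edgeR). WDR3 (ENSG00000065183, chromosome 1, 117929720 to 117966542) was at 139, 138 and 156 CPM in control and 117, 98.2 and 90.3 CPM in knockdown (-0.50 ± 0.0697, adjusted p = 2.14e-06, edgeR). Replicate 1 was the highest knockdown library for this gene and still lay below control.

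Of the 4 genes of the set assigned to the U3 snoRNP and the complex bound to it, 3 fell and IMP4 did not pass. IMP3 was at 29.1, 30.7 and 28.7 CPM in control and 21.5, 25.8 and 22.7 CPM in knockdown (-0.34 ± 0.0887, adjusted p = 0.00254, edgeR). Of the 7 other processome factors 5 fell. UTP14A, 1 of these 5 at -0.16, lost its call in the 0 h libraries alone and without the filter (adjusted p = 0.313 and 0.205, edgeR). It lost it also without control replicate 1 or 2 or knockdown replicate 1 or 3 at 0 h (adjusted p = 0.0576 to 0.0939, edgeR). UTP20 (ENSG00000120800, chromosome 12, 101280109 to 101386616), a long scaffold protein, showed the lowest value of the 50: 251, 236 and 256 CPM in control, 182, 163 and 165 CPM in knockdown. Its groups were far apart (-0.54 ± 0.0533, adjusted p = 9.34e-09, edgeR). DCAF13, whose yeast counterpart is Sof1, lay next at -0.54 ± 0.0688 (adjusted p = 5.62e-07, edgeR).

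Of 6 late small-subunit factors 4 fell, from -0.33 for PNO1 to -0.21 for BYSL, and NOB1 (the nuclease that makes the final cut of small-subunit RNA) and RRP12 did not pass. TSR1, a GTPase-like factor of the late particle, was at 205, 212 and 205 CPM in control and 178, 179 and 173 CPM in knockdown, a small gap with tight replicates (-0.23 ± 0.0465, adjusted p = 2.37e-04, edgeR). The call was lost when the fit held the 0 h libraries alone (adjusted p = 0.0566, edgeR). LTV1, at -0.27, lost its call there too (adjusted p = 0.148, edgeR). It lost it also without control replicate 1 or 3 or knockdown replicate 2 or 3 at 0 h (adjusted p = 0.0509 to 0.116, edgeR). Of 9 large-subunit factors 7 fell. GNL3 (nucleostemin, ENSG00000163938, chromosome 3, 52681156 to 52694492), a nucleolar GTPase abundant in stem cells, was at 238, 237 and 262 CPM in control and 193, 163 and 159 CPM in knockdown (-0.52 ± 0.0648, adjusted p = 4.48e-07, edgeR). BOP1, PES1 and WDR12, which act together as the PeBoW complex, changed by -0.44, -0.22 and -0.29. NOP2, an RNA cytosine methyltransferase, and RRP1 did not pass.

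The abundant nucleolar proteins NCL and NPM1 fell, and the helicase DDX21 did not pass. NCL was at 2462, 2449 and 2638 CPM in control and 2155, 1930 and 1801 CPM in knockdown. NPM1 was at 1831, 1761 and 1952 CPM in control and 1613, 1272 and 1183 CPM in knockdown. Replicate 1 was the highest knockdown library for both, and neither gene's groups overlapped (-0.36 ± 0.0516 and -0.45 ± 0.0705, adjusted p = 3.34e-06 and 1.16e-05, edgeR).

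**Figure D2:**
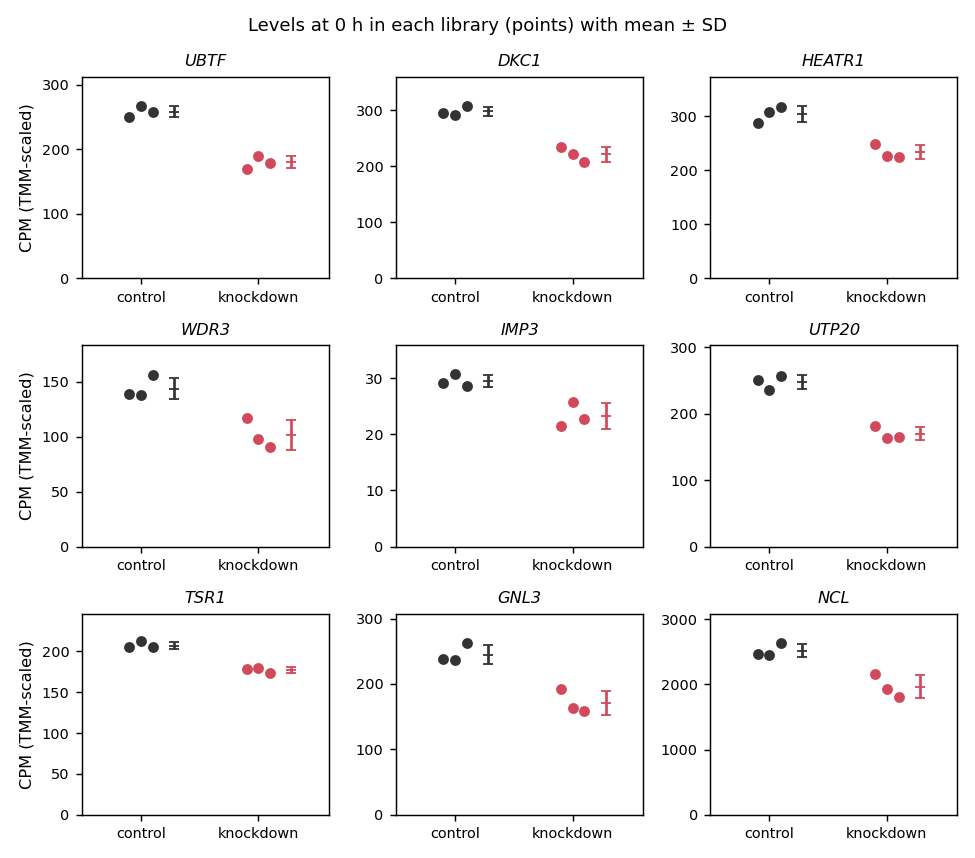
Level at 0 h (TMM-scaled CPM) in each library of control and knockdown for the leading gene of each role, 1 point per library beside the group. UBTF, DKC1, HEATR1, WDR3, IMP3, UTP20, TSR1, GNL3 and NCL each have all 3 knockdown libraries below all 3 control libraries, bars being the mean ± SD.

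Start-site sequence was available for 41 of the 50 genes, in 48 windows of 250 bases before to 50 after the start (RefSeq, GRCh38.p14). The letters CACGTG, the E-box bound by MYC and MAX and a palindrome, occurred in 17 of the 48 windows (35.4%), against 2548 of 35116 windows of all genes (7.26%). The letters CCGGAAG or their reverse complement CTTCCGG, a core bound by ETS factors, occurred in 16 windows (33.3%), against 3603 of all windows (10.3%). Median GC content was 64.0% in these windows and 58.7% in all. A match is a description of letters and not of a bound site. The windows of 4 genes that lead their roles at 0 h are printed to show both the presence and the absence of these letters, which are in capitals. UTP20 lies on the plus strand at chr12:101279855-101280154 and holds 1 E-box. WDR3, on the plus strand at chr1:117929489-117929788, holds both orientations of the ETS letters. DKC1, on the plus strand at chrX:154762614-154762913, and HEATR1, on the minus strand at chr1:236604467-236604766, hold neither.
UTP20: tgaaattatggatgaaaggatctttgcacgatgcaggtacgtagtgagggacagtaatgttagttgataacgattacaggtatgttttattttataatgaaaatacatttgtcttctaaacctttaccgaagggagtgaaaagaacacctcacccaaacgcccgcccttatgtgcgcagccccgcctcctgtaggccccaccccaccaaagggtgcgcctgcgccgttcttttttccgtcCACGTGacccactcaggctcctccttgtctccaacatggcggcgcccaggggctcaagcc
WDR3: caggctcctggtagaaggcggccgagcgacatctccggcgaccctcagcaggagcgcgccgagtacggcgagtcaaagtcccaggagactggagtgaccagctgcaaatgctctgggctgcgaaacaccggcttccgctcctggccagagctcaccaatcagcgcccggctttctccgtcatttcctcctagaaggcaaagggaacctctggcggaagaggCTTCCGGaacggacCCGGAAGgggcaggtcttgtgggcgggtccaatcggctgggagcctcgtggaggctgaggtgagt
DKC1: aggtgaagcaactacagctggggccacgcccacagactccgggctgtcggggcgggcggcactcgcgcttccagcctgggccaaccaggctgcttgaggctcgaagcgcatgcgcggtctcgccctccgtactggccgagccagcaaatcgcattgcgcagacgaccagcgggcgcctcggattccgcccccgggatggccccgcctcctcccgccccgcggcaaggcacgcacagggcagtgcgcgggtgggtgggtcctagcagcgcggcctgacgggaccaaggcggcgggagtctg
HEATR1: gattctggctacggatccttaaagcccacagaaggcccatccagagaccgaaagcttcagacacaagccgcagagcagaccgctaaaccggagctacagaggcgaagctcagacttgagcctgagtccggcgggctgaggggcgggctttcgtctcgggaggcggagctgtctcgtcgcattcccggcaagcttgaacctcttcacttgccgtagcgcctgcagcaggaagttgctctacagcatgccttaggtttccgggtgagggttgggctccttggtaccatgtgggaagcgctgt

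After 1.5 h of actinomycin D most of the genes were again lower in knockdown. Of the 50, 37 were lower in knockdown and none was higher, at adjusted or at unadjusted p under 0.05 with edgeR, or with DESeq2. Of all genes 26.2% were lower and 28.4% higher. The median of the 50 was -0.31, against 0.03 over all genes. DCAF13 had the lowest value (-0.72), followed by UTP20 (-0.64), BOP1 (-0.61) and NPM1 (-0.58). FBL, which had not passed at 0 h, was lower at 1.5 h, at 464, 439 and 457 CPM in control and 354, 350 and 395 CPM in knockdown. All 5 snoRNP genes passed at this time, and RRN3 was at 0.28 without passing.

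At 3.5 h the genes had parted. Relative to the typical transcript 12 of the 50 were lower in knockdown and 27 higher, against 26.4% and 35.0% of all genes, whereas under spike-in scaling 35 were lower (71.7% of all genes) and 2 higher, MPHOSPH10 and RRS1, and the median of all genes moved to -0.98. The 12 lower genes were TCOF1, FBL, DKC1, NOLC1, HEATR1, TBL3, UTP3, DCAF13, BOP1, WDR12, NCL and NPM1. Groups did not overlap for 13 genes on the lower side and for 31 on the higher side, against 30.4% and 38.8% of all genes. Under TMM scaling 3 of the 5 snoRNP genes were lower and none higher (none at unadjusted p either), while of the late small-subunit factors 5 of 6 were higher and of the large-subunit factors 6 of 9.

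The highest genes at 3.5 h belonged to several roles. MPHOSPH10 (ENSG00000124383, chromosome 2, 71130314 to 71150101), a phosphoprotein that holds IMP3 and IMP4 on the U3 particle, was at 6.33, 6.67 and 5.51 CPM in control and 20.2, 20.4 and 22.3 CPM in knockdown. RRS1 (ENSG00000179041), which brings the small ribosomal RNA of the large subunit into the precursor particle, was at 4.80, 5.73 and 5.80 CPM in control and 16.9, 18.3 and 19.4 CPM in knockdown. At 3.5 h every knockdown library of both lay above control, by 1.76 ± 0.141 and 1.74 ± 0.0964 (adjusted p = 1.66e-10 and 2.46e-13, edgeR), and by 0.70 and 0.67 under spike-in scaling. At 0 h RRS1 had been lower in knockdown (-0.38). MPHOSPH10 had passed there at -0.28 with overlapping libraries, a call lost in the 0 h libraries alone and without control replicate 3 or knockdown replicate 2 or 3 (adjusted p = 0.097 to 0.148, edgeR). UTP14A (chromosome X, 129906121 to 129929761), whose yeast counterpart activates a processome helicase, was at 20.5, 21.4 and 19.9 CPM in control and 53.6, 54.0 and 53.9 CPM in knockdown, by 1.39 ± 0.069 (adjusted p = 3.58e-14, edgeR), and at 0.32 under spike-in scaling, where it did not pass. LTV1, a factor of small-subunit export, was higher by 1.10 ± 0.0994 and IMP3 by 1.08 ± 0.125, against 0.04 and -0.00171 under spike-in scaling (adjusted p = 0.849 and 0.995, edgeR).

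The lower genes at 3.5 h included NCL, NPM1 and FBL, the 3 with the highest signal per length in control at 0 h. All 12 lower genes were called lower under spike-in scaling too, as were 71.7% of all genes. NPM1 was at 2753, 2691 and 2582 CPM in control and 1700, 1738 and 1751 CPM in knockdown, the lowest log2 value of the 50 (-0.63 ± 0.0706, adjusted p = 4.94e-08, edgeR). FBL was at 630, 599 and 579 CPM in control and 408, 388 and 399 CPM in knockdown (-0.60 ± 0.0536, adjusted p = 1.29e-09, edgeR). NCL was at 2835, 2744 and 2628 CPM in control and 2086, 2105 and 2165 CPM in knockdown. For these 3 genes every knockdown library lay below every control library, and the spike-in scaled changes were -1.69, -1.66 and -1.43.

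The time course within each genotype, scaled to the spike-in, showed a fall of nearly every gene. In control 48 of the 50 were lower at 1.5 h (74.6% of all genes) and 49 at 3.5 h (81.1% of all genes), and in knockdown 40 at 1.5 h (47.4% of all genes) and all 50 at 3.5 h (97.3% of all genes). None was higher at any of these times, at unadjusted p under 0.05 with edgeR or with DESeq2. Few genes of any kind rose under this scaling. With edgeR, 2 and 99 of all 16760 genes passed as higher in control at 1.5 and 3.5 h, and 6 and 0 in knockdown. FBL did not pass in control at 3.5 h. In control the median of the 50 was -1.77 at 3.5 h, against -1.14 over all genes, and in knockdown it was -1.65 against -1.47. The count at 1.5 h rested on single libraries, and the count over all genes fell with it. In control the count of the 50 fell to 30 without control replicate 1 at 0 h (7094 of the 17122 genes tested there). In knockdown it fell to 16 without knockdown replicate 1 at 0 h (2942 of 17067 genes). Without knockdown replicate 2 at 1.5 h it fell to 11 (2065 of 17117 genes).

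Expressed as the share of the 0 h level that was left, the 50 genes had a median of 63.7% in control at 1.5 h and 29.5% at 3.5 h, against 62.4% and 45.2% over all genes. In knockdown the medians were 67.2% and 32.0%, against 70.6% and 35.9%. At 3.5 h the range was from 4.47% (MPHOSPH10) to 77.2% (FBL) in control and from 13.7% (MPHOSPH10) to 43.9% (NOP58) in knockdown, so the genes lay closer together in knockdown. The 5 genes with the least left in control at 3.5 h were MPHOSPH10, RRS1 (4.56%), IMP3 (8.47%), POLR1B (9.38%) and BYSL (9.46%). Those with the most left were FBL, NPM1 (66.2%), TBL3 (58.9%), BOP1 (56.0%) and WDR12 (56.0%).

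**Figure D3:**
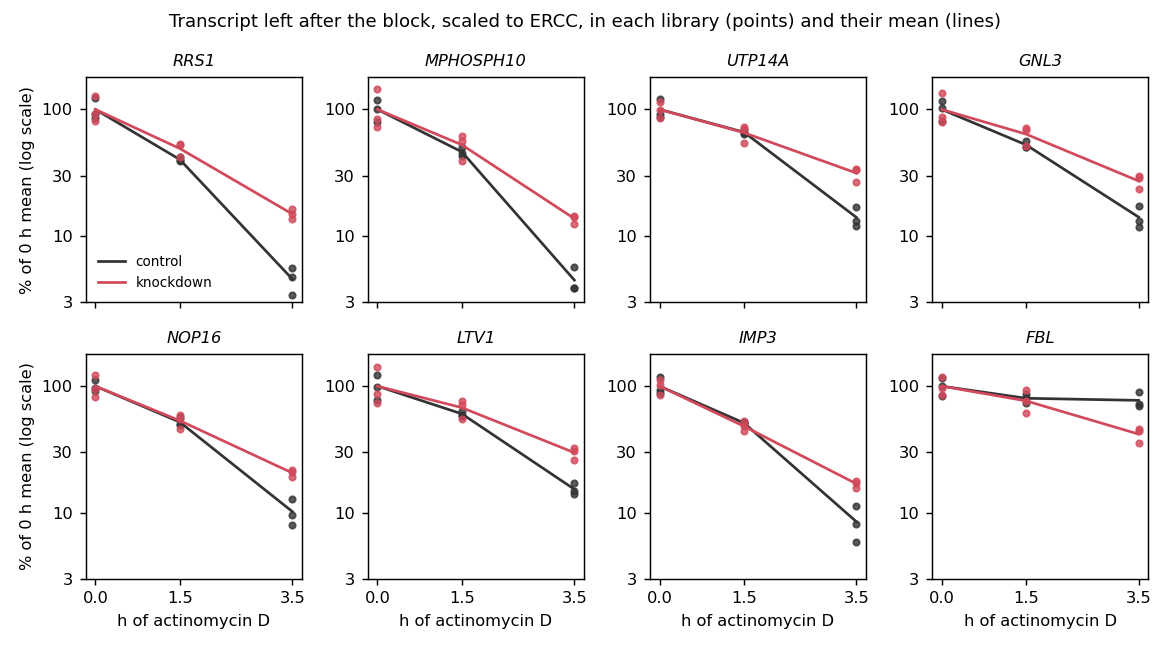
Percentage of transcript left (vertical axis, spike-in scaled, with the 0 h mean of each genotype as 100) against hours of actinomycin D, 1 point per library with the group mean, for 8 genes. RRS1, MPHOSPH10, UTP14A, GNL3, NOP16, LTV1 and IMP3 end higher in knockdown than in control, and FBL ends lower, at 41.8% against 77.2%.

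The decay slope, in log2 units per hour from a line through the 3 times, differed between genotypes for 8 of the 50 genes. It was higher in knockdown (a slower fall) for 7, against 2.4% of all genes, and lower (a faster fall) for 1, against 11.0% of all genes. The median difference of the 50 was 0.03 per hour, and that of all genes was -0.10. Under TMM scaling 34 of the 50 had a higher slope, as did 20.5% of all genes. Without control replicate 1 or replicate 3 at 3.5 h 3 genes were called higher, against 232 of 17091 and 221 of 17095 genes tested. The count of lower slopes became 4 without control replicate 1 at 0 h, against 4298 of 17122 genes. It became 2 without knockdown replicate 3 at 0 h, against 2796 of 17099 genes. It was 0 without control replicate 2 or knockdown replicate 3 at 3.5 h, against 735 of 17100 and 909 of 17113 genes.

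RRS1 and MPHOSPH10 showed the greatest differences. Shares left were taken against the mean of a genotype's 0 h libraries, so their spread at 3.5 h leaves out the spread at 0 h. The 0 h libraries of RRS1 lay at 123%, 85.0% and 92.1% of that mean in control and at 127%, 91.5% and 81.6% in knockdown. RRS1 had 3.41%, 5.57% and 4.71% left at 3.5 h in control and 14.9%, 16.2% and 13.5% in knockdown. Every knockdown library lay above every control library, and the slope difference was 0.485 ± 0.09 per hour (adjusted p = 1.22e-05, edgeR). MPHOSPH10 had 3.90%, 5.63% and 3.88% left in control and 14.2%, 14.4% and 12.4% in knockdown, again without overlap (0.458 ± 0.0909 per hour, adjusted p = 5.34e-05, edgeR). UTP14A had 11.9%, 17.0% and 13.2% left in control and 33.5%, 34.0% and 26.6% in knockdown (0.344 ± 0.0856 per hour, adjusted p = 0.00194, edgeR). At 1.5 h the share left of UTP14A was 66.1% ± 2.51 in control and 65.5% ± 10.3 in knockdown (SD, n = 3), with overlapping libraries. The other genes whose slope passed also had overlapping libraries at 1.5 h. Means in control and knockdown were 40.2% and 49.1% for RRS1, 52.0% and 53.4% for NOP16, and 80.2% and 76.5% for FBL. A single line through the 3 times does not tell an early difference from a late one.

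The other 4 genes with a higher slope in knockdown were a mixed set by role. GNL3 had 14.1% ± 2.83 left in control and 27.2% ± 3.09 in knockdown at 3.5 h (SD, n = 3). NOP16, a nucleolar large-subunit factor, had 10.2% ± 2.45 and 20.6% ± 1.43 left. LTV1 had 15.3% ± 1.59 and 29.8% ± 3.26 left, and IMP3 8.47% ± 2.74 and 16.9% ± 1.09. In none of these 4 did the libraries overlap at 3.5 h, and all 4 lost the call without control replicate 1 or replicate 3 at 3.5 h (adjusted p = 0.0561 to 0.137, edgeR). LTV1 lost it also without knockdown replicate 2 or 3 at 0 h and IMP3 without knockdown replicate 2 at 3.5 h (adjusted p = 0.0508 to 0.0534, edgeR).

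FBL was the single gene with a faster fall in knockdown. It had 69.1%, 90.0% and 72.7% left at 3.5 h in control and 45.9%, 44.1% and 35.4% in knockdown. Its slope differed by -0.262 ± 0.0786 per hour (adjusted p = 0.0132, edgeR), and the call was lost without control replicate 2 or knockdown replicate 3 at 3.5 h (adjusted p = 0.0704 and 0.0591, edgeR). NPM1 had 66.2% ± 10.4 left in control and 43.5% ± 5.42 in knockdown, a slope difference of -0.179 that did not pass (adjusted p = 0.0969, edgeR). RRN3, at 0.279, did not pass either (adjusted p = 0.0699, edgeR).

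**Figure D4:**
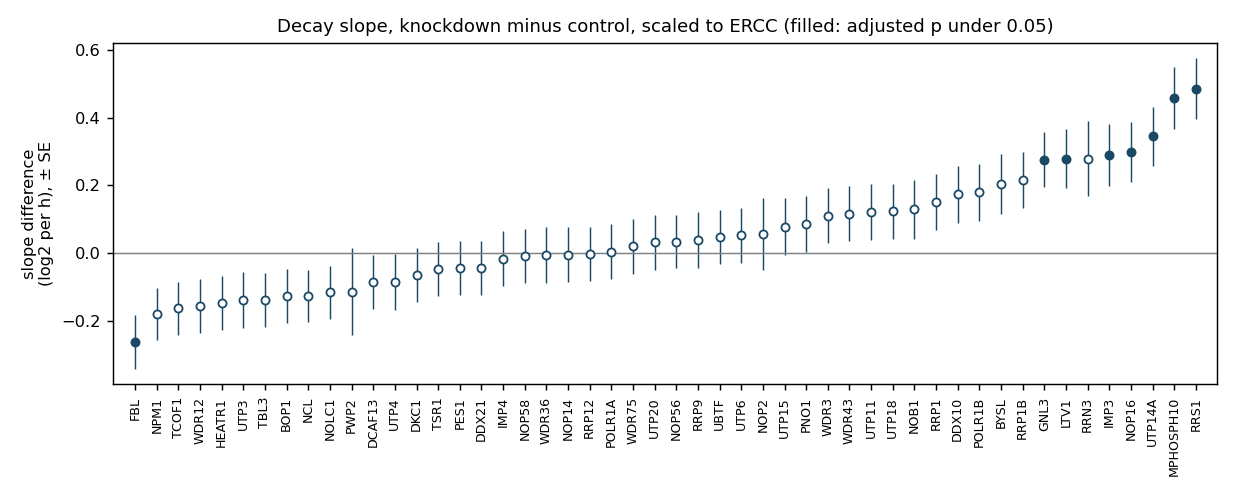
Difference in decay slope, knockdown minus control (vertical axis, log2 per hour, spike-in scaled, ± SE), for the 50 genes in order. Filled points passed an adjusted p of 0.05: FBL at -0.262 and GNL3, LTV1, IMP3, NOP16, UTP14A, MPHOSPH10 and RRS1 from 0.276 to 0.485.

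The authors' deposited table gives half-lives in hours for 47 of the 50 genes in control and 49 in knockdown, with no error. PWP2 is not listed there, and MPHOSPH10 and RRS1 are listed without a control value. In the authors' deposited table the median of these genes was 2.18 h in control and 2.24 h in knockdown, against 3.05 h and 2.56 h over all genes. Their range in the authors' deposited table was 1.14 h (BYSL) to 10.3 h (FBL) in control and 1.34 h to 3.16 h in knockdown. By the authors' deposited values 27 of the 47 genes had a longer half-life in knockdown and 20 a shorter one, and over all 12306 genes with both values 32.6% were longer. FBL went from 10.3 to 2.94 h, NPM1 from 6.15 to 3.04 h and TBL3, of the UTP-B complex, from 4.56 to 2.89 h in the authors' deposited table. In the other direction GNL3 went from 1.46 to 1.99 h and LTV1 from 1.65 to 2.17 h in the authors' deposited table.

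**Figure D5:**
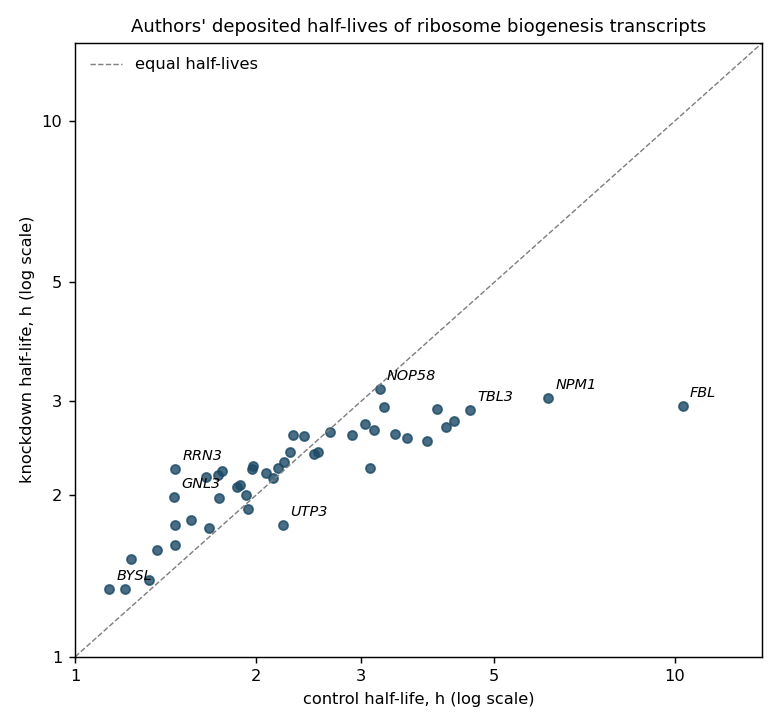
Half-life in hours from the authors' deposited table, knockdown (vertical axis) against control (horizontal axis), 1 point per gene with both values (47 genes). Genes with long half-lives in control, such as FBL (10.3 h) and NPM1 (6.15 h), lie at 2.94 h and 3.04 h in knockdown.

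A wider list of 125 other ribosome biogenesis genes, of which 124 were tested, was lower on balance at 0 h, with 68 lower, 4 higher and a median of -0.22, against 28.3% lower and 23.8% higher over all genes. Under spike-in scaling 120 were lower and none higher, against 10748 and 936 of all 16760 genes. The median of all genes lay at -0.71 there. EBNA1BP2 (a large-subunit factor) changed by -1.08, SNU13 (the RNA-binding protein of box C/D and U3 particles) by -1.03 and URB2 by -0.82. Each of these lay below any of the 50 genes. In the opposite direction UTP23 was at 0.60, BUD23 (a ribosomal RNA methyltransferase) at 0.46 and RIOK2 (a kinase of the late small subunit) at 0.41. At 3.5 h 31 were lower and 58 higher (26.4% and 35.0% of all genes), among them BRIX1 (a large-subunit factor, 1.91). Spike-in scaling at 3.5 h gave 99 lower and 2 higher, against 12015 and 789 of all 16760 genes. For the slope 3 were lower and 10 higher (11.0% and 2.4% of all genes), among them NGDN at 0.51 and BRIX1 at 0.49 per hour on the higher side and EXOSC5 at -0.25 and EXOSC7 at -0.22 on the lower side. The last 2 are subunits of the exosome, which trims ribosomal RNA precursors.

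Some values are uncertain because annotated genes share sequence, and 28 of the 50 overlap an exon of another annotated gene. For 19 of the 50, over 5% of the windows of 50 bases along the transcript also occur in another gene. That share was 89.8% for PWP2, 83.3% for NOP2, 66.7% for IMP3, 44.4% for NPM1 (with 30 other genes, pseudogene copies among them), 30.4% for LTV1, 30.2% for NOB1, 28.2% for NOP16, 26.9% for RRN3 and 26.8% for TBL3, and lower for the rest. The sources used here do not give the strand setting of the counting, so it is not known whether reads of overlapping genes on opposite strands were kept apart.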

How the data were processed

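The deposited files hold raw counts by gene and ERCC transcript for 18 polyadenylated RNA libraries, 15037492 to 15519197 counts each. Per the submitters' processing notes, the tools included featureCounts 2.0.3, HISAT2 2.2.1, fastp 0.21.1 and SAMtools 1.12, with build hg38. The annotation release and strand setting were not given in the sources used here. A further table deposited by the authors holds a length-scaled signal, half-lives in hours and the log2 ratio of those half-lives. From its values, the deposited signal is the count times 1 factor per gene and 1 per library, to within 6.4e-15, and a least-squares exponential gave 96 of 96 deposited half-lives of these genes to within 1%.

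The 50 genes and all lists were chosen with earlier results of these data known. Coordinates came from GENCODE v29 and start-site windows from RefSeq. edgeR 4.0.16 (quasi-likelihood F test, R 4.3.3) was fitted to the 16760 genes that passed filterByExpr, in all 18 libraries, and p-values were adjusted by Benjamini-Hochberg over all of them, calls being made at 0.05. TMM scaled the comparisons of genotypes, and summed ERCC counts scaled changes over time and slopes. An SE is the absolute log2 change divided by the square root of F. Biological variation (common BCV) came to 6.29% with TMM and 16.3% with ERCC scaling. Since ERCC RNA was added after purification, it does not measure RNA per cell.

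Values were printed for the gene of each role with the smallest p at 0 h and for the slope, the extremes of each role, every gene whose slope passed, and 3 other pathway genes per direction; other named genes were chosen after their values were seen. Scripts were tested on simulated data. Alternatives were the other scaling, DESeq2 1.42.0, no filter on low counts, the compared groups alone, a replicate block, each library left out, and the change from 0 to 3.5 h alone. Same-numbered libraries did not deviate together (r over 0.1 in 4 of 45 pairs). Deviations within groups of 3 may be technical, so this cannot show whether the numbers pair cultures, and the labels do not say.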

Additional observations from a re-analysis of the deposited data

Results flagged for a closer look

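Of the 50 genes 8 had a decay slope that differed between the genotypes by the genotype-by-time term (edgeR quasi-likelihood test, adjusted p under 0.05). The slope, in log2 units per hour and knockdown minus control, differed by 0.485 for RRS1, 0.458 for MPHOSPH10, 0.344 for UTP14A, 0.298 for NOP16, 0.289 for IMP3, 0.279 for LTV1 and 0.276 for GNL3. For FBL it differed by -0.262.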

How the results depend on the processing

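Under the other scaling 35 genes were lower and 2 higher in knockdown at 3.5 h, against 12015 and 789 of all 16760 genes tested. Relative to the typical transcript, 13 were lower and 7 higher in control at 1.5 h, against 2553 and 1883 of all 16760 genes. In control at 3.5 h 35 were lower and 8 higher, against 5804 and 5301 of all genes. Knockdown had 11 lower and 2 higher at 1.5 h (1351 and 1500 of all genes), and 21 lower and 9 higher at 3.5 h (3814 and 4213 of all genes). The slope was higher in knockdown for 34 and lower for 1 (3439 and 1863 of all genes). Of the 27 genes higher at 3.5 h, 22 were below 0 under the other scaling, 12 of them called lower. In all, 30 of the 50 changed sign. Among the 18 genes followed singly, directions turned at 3.5 h for UBTF (-1.01), TSR1 (-1.03), WDR3 (-0.77), GNL3 (-0.21), NOP16 (-0.10) and IMP3 (-0.00171), and for the slope of TSR1 (0.0758). In the compared groups alone 20 genes were lower in knockdown at 0 h (2975 of all 15802 genes tested there). At 1.5 h against 0 h in knockdown 24 were lower (4504 of all 15901 genes). Half-lives from fitted slopes gave a median log2 ratio of 0.10 over the 50 genes, against -0.34 over all genes falling in both genotypes. The authors' half-lives gave 0.05 over 47 of the 50, against -0.24 over 12306 genes. Leaving out each library gave 33 to 39 lower at 0 h, 35 to 40 at 1.5 h, and 11 to 12 lower and 24 to 30 higher at 3.5 h. Over time it gave 30 to 49 lower in control and 11 to 49 in knockdown at 1.5 h, and 49 to 50 in control and 50 in knockdown at 3.5 h. Slope counts ran from 0 to 4 lower and from 3 to 9 higher, and all other higher counts stayed at 0. The replicate block gave 39, 37, and 12 lower with 27 higher at 0, 1.5 and 3.5 h, 38 lower in knockdown at 1.5 h, and 1 lower and 7 higher slope; it moved no count by over 1.5 times. The causes were not tested.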

Other observations

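PWP2 and NOP2 had low counts. PWP2 (chromosome 21, 44107290 to 44131181, GRCh38) had 34 to 36 counts per control library at 0 h and 31 to 36 per knockdown library. An annotated near copy on the same chromosome, FP565260.1 (5130871 to 5154734), had 103 to 117 and 122 to 131 counts. NOP2 (chromosome 12, 6556863 to 6568691) had 79 to 109 counts in control and 77 to 93 in knockdown. AC006064.6 (6556886 to 6607367), which overlaps it on the same strand, was at 0 in the libraries of both genotypes at 0 and 3.5 h.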
